A study of Mus musculus with 12 samples.

Results

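One library represented astrocytes at 1 week after full transection (FT) of the spinal cord, and it was set against the 3 libraries of non-injured (NI) controls, out of 12 libraries in the study. It is the single library that the labels place in the FT 1 week group, although the study's methods describe replicates at every time point, so each comparison below describes 1 library against the range of 3 and carries no p-value. RNA came from eGFP+ cells isolated by fluorescence-activated cell sorting (FACS) from Aldh1l1-EGFP mice, males on a Swiss Webster background, 12 weeks old at surgery, in which the promoter of the astroglial enzyme gene Aldh1l1 drives eGFP. FT mice had the cord severed completely at thoracic level 9 and gave a segment around the lesion, while NI mice gave the matching thoracic segment without a lesion, and both carried the transgene. The methods count more mice than libraries in both groups without saying which mice entered which library. The remaining 8 injured libraries, 3 of FT at 2 weeks, 3 of hemisection (HS) at 1 week and 2 of HS at 2 weeks, are given beside the FT 1 week library where they place it.

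Astrocytes take up glutamate and buffer potassium around synapses, and after injury they become reactive and wall off the lesion. Interferons are cytokines of antiviral defence whose receptors signal through Janus kinases to transcription factors that enter the nucleus. Their target genes encode GTPases that attack intracellular pathogens, sensors of viral RNA, the machinery that shows peptides to T cells, and chemokines that draw lymphocytes in. Astrocytes, microglia and invading macrophages can all respond to them.

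Values are normalized counts, that is reads per gene divided by 1 factor per library, and the 3 NI values are always given for replicates 1, 2 and 3 in that order. The FT 1 week library held the fewest reads of the 12 (8270643, against 12257277 to 13254939 in NI), and a single read in it was worth 0.134 normalized counts. It had 105 genes without a read, against 5 to 19 in NI. Oligodendrocyte and myelin genes took 12.2% of its normalized counts, against 13.3, 8.22 and 8.31% in NI, and homeostatic astrocyte genes took 0.261%, against 0.766, 1.17 and 0.327%. Oligodendrocyte genes thus exceeded astrocyte genes in all 4 libraries, against the cell type on the labels, although such shares also reflect transcript length. Aldh1l1 itself had 48.5 normalized counts at FT 1 week and 82.3, 59.4 and 10.2 in NI. The NI libraries were unlike each other, as replicate 1 had few microglial and neutrophil transcripts and many fibroblast transcripts, and replicate 3 had few astrocyte transcripts. In such bulk samples fewer cells of a type and less RNA per cell cannot be told apart.

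A gene was counted as higher or lower where the FT 1 week library lay at least 1 log2 unit (2-fold) beyond the nearest NI library on the log2(normalized count + 1) scale. Of 16388 genes compared, 384 (2.34%) were higher and 472 (2.88%) were lower (856, or 5.22%, in either direction), and the median difference over all genes was -0.02. The shares of 2.34% and 2.88% are the background for the counts of members in every list below. By any amount, 4455 genes lay above every NI library and 4928 below every NI library. The 2-fold rule was also run on each other injured library. The 3 HS 1 week libraries had 148 (0.903%), 120 (0.732%) and 274 (1.67%) higher genes and 125 (0.763%), 319 (1.95%) and 146 (0.891%) lower genes. The 2 HS 2 weeks libraries had 319 (1.95%) and 101 (0.616%) higher genes and 181 (1.1%) and 78 (0.476%) lower genes. The 3 FT 2 weeks libraries had 124 (0.757%), 134 (0.818%) and 110 (0.671%) higher genes and 133 (0.812%), 156 (0.952%) and 84 (0.513%) lower genes. The FT 1 week library had the most genes in both directions, also with the fewest reads. The higher genes had a median of 45.1 normalized counts at FT 1 week, against 7.14 for the NI mean, and they took 7.60% of its normalized counts, against 1.34%, 2.09% and 2.24% in NI. The lower genes had a median of 2.15, against 13.7 in NI, and 73 of them rested on 3 reads or fewer. At the edge of the rule, Renbp lay 1.00 log2 unit above the nearest NI library and counted as higher, while Tspan10 at 0.99 did not, and Emp2 was the lower gene nearest to the edge. Without NI replicate 1 the rule found 564 higher and 1117 lower genes, and without NI replicate 3 it found 503 and 826, since a narrower NI range is easier to leave. Rescaled to the same total per library, the split became 267 higher and 719 lower genes, and the median difference over all genes -0.27. Against all 11 other libraries at once, 118 genes (0.72%) were higher and 63 (0.384%) lower, 181 (1.1%) in all.

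**Figure D1:**
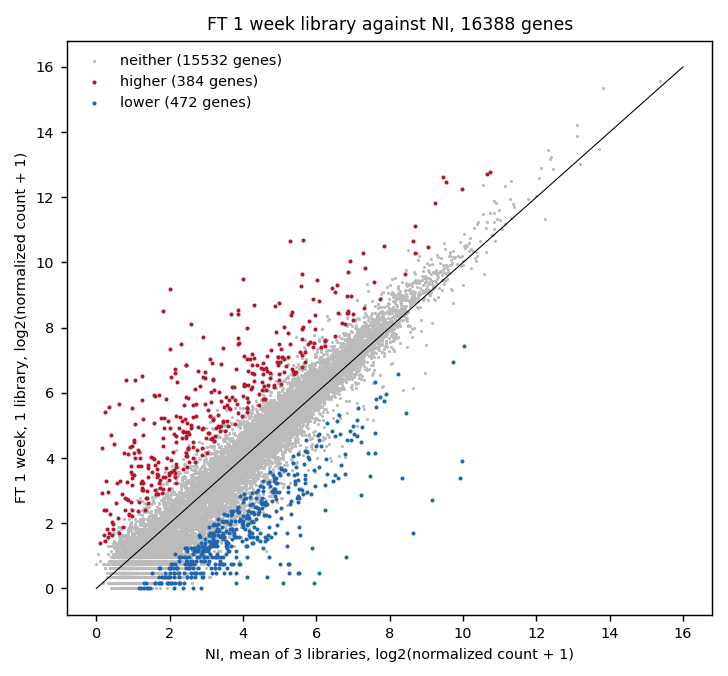
Each point is 1 of 16388 genes, with log2(normalized count + 1) in the FT 1 week library on the vertical axis and the mean over 3 NI libraries on the horizontal axis. Red marks the 384 higher and blue the 472 lower genes, the line marks equal values, and rows of points at the lower edge are genes with few reads in the FT 1 week library.

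**Figure D2:**
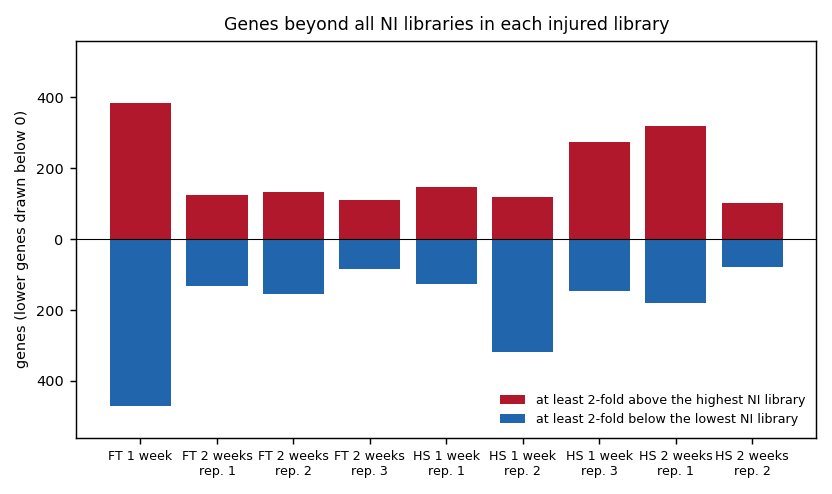
Bars give, for each of the 9 injured libraries, the number of genes at least 2-fold beyond all 3 NI libraries, higher genes above 0 and lower genes below it. The FT 1 week library has 384 and 472, and the others have at most 319 in either direction.

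The genes furthest above NI were led by interferon targets. Iigp1, an immunity-related GTPase gene (chromosome 18, 60376027 to 60392634), had 575 normalized counts at FT 1 week and 4.89 to 15.7 in the 8 other injured libraries, against 5.81, 2.17 and 2.09 in NI. The log2 difference from NI was 7.15. The acute-phase gene Saa3 had 365, against 5.66, 3.0 and 0.648. Iigp1 and Saa3 thus lay above every other library of the study. The guanylate-binding protein gene that the files call Gbp1 (Gbp2b in the annotation used here) had 83.9, against 0.864, 0.511 and 0.936. Gm15070 (Trpc5os), on the X chromosome, had 49.4 at FT 1 week and 0.347 to 1.28 in the other injured libraries, against 0.550, 0.574 and 0.504 in NI. Both were likewise highest in the FT 1 week library. Complement factor B (Cfb), the chemokine genes Cxcl9, Ccl5 and Ccl8, the mast cell protease genes Mcpt1 and Mcpt2, the complement gene C4b, the GTPase genes Gm12250, Igtp and Gbp4 and the scavenger receptor gene Cd36 completed the first 15 and are described with their groups.

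**Figure D3:**
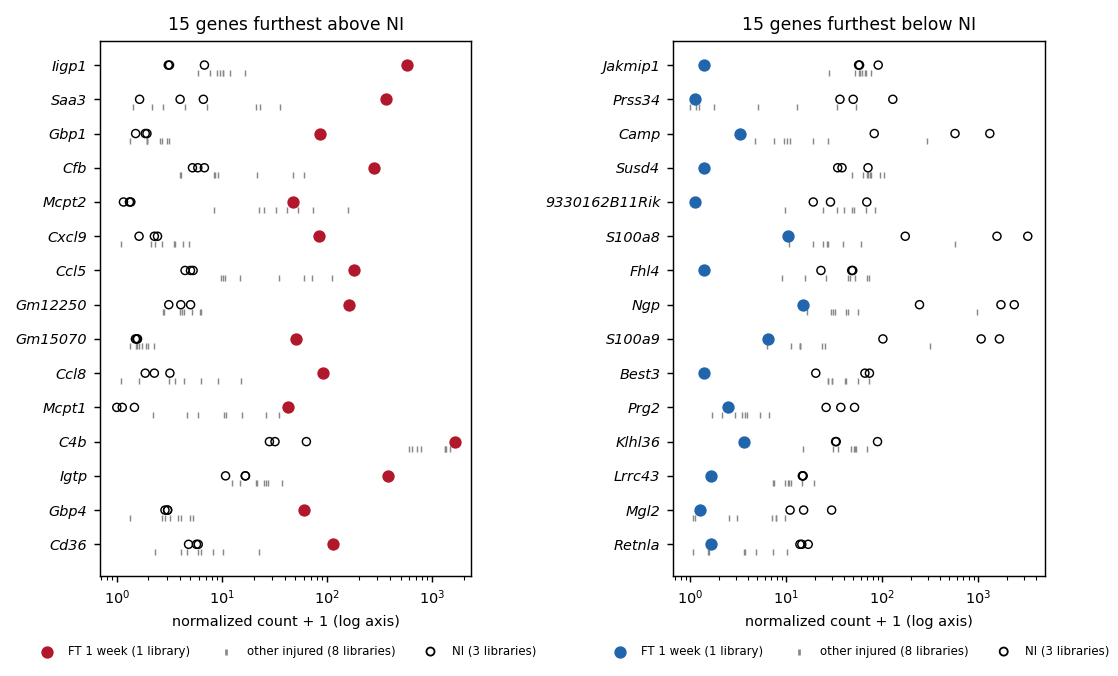
Normalized count + 1 on a log axis for the 15 genes furthest above (left, red) and the 15 furthest below (right, blue) the NI range. Filled points are the FT 1 week library, ticks the 8 other injured libraries and open circles the 3 NI libraries. Iigp1 stands at 575 normalized counts in FT 1 week and at most 5.81 in NI.

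Of 18 interferon-inducible GTPase genes, 17 were higher and none was lower, and their log2 differences ran over 0.99 to 7.15 with a median of 3.83, beside 2.34% of all genes higher and a median of -0.02. All 17 were also higher than in every one of the 11 other libraries. These genes encode immunity-related GTPases and guanylate-binding proteins, which coat and break the vacuoles of intracellular pathogens. Summed over the list, they had 2806 normalized counts at FT 1 week, 127 to 226 in the other injured libraries and 142, 100.3 and 112 in NI. Among the immunity-related GTPases, Gm12250 (Irgb10) had 161, against 2.12, 3.06 and 4.03. Igtp had 375, against 9.82, 15.6 and 15.8. Irgm1, a regulator of the other members, had 416, against 17.8, 17.2 and 20.9. The 3 NI libraries were close to each other for all 3 genes, and the other injured libraries reached at most 5.32 for Gm12250, 36.5 for Igtp and 59.6 for Irgm1. Among the guanylate-binding proteins, Gbp2 had 338, against 16.7, 10.4 and 9.50. Gbp4 had 59.6, against 2.04, 2.04 and 1.87. Gbp11 was the 1 member that was neither, with 8.46, against 6.44, 1.85 and 4.10. Without any 1 NI library, 17, 17 and 17 members were higher. Several of these genes are close paralogs (Tgtp1 and Tgtp2, the Gbp clusters) or overlap on the same strand (Igtp with Irgm2, Gbp4 with Gbp8 and Gbp9), so the split of reads between neighbours is uncertain.

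Because so many of these genes were higher, their promoters were read from RefSeq (GRCm38.p6, 250 bases before to 50 after the start) and searched on both strands for GAAA, any 2 bases and GAAA again, the core of the interferon-stimulated response element. A window was found for 11 of the 18 GTPase genes, and 10 of the 11 (90.9%) held the motif. A gene was counted if any of its windows held the motif. Of genes with a window, 12 of 19 antiviral genes (63.2%), 59 of 277 higher genes (21.3%) and 14 of 349 lower genes (4.01%) held it. Over all genes compared it was 478 of 12670 (3.77%). Counted by window, a different unit, it was 1131 of 32851 (3.44%). The motif TTCNNNGAA, the core of the gamma-activated sequence, was held by 34 higher genes (12.3%) and 33 lower genes (9.46%) with a window. Over all genes compared with a window it was 8.37%. By list, 7 of 11 GTPase genes (63.6%) and 7 of 19 antiviral genes (36.8%) with a window held it. A match describes letters in a window and is not a site shown to be bound. The GTPase and antiviral lists were drawn up as interferon targets, for which this motif is known. The higher genes include 17 of the GTPase and 24 of the antiviral members, so these shares are not separate results. Windows of 3 GTPase genes with large differences and of the MHC class I gene H2-T23 are given here in gene orientation, to show where the match lies, in capitals (as its reverse complement where it lies on the other strand). They lie at chr11:58183593-58183892 (plus strand), chr11:58199306-58199605 (plus), chr3:142620413-142620712 (plus) and chr17:36032652-36032951 (minus).
Gm12250: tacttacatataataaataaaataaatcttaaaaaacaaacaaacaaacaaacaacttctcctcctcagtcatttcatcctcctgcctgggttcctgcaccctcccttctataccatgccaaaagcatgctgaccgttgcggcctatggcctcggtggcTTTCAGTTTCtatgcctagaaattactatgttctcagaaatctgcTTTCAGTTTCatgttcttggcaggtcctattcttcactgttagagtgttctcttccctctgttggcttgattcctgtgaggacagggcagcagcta
Igtp: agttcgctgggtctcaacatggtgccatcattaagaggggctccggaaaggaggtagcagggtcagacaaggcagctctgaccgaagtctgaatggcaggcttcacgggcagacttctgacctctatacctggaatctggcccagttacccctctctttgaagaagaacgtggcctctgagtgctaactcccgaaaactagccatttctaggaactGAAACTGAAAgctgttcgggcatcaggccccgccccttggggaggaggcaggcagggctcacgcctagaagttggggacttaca
Gbp2: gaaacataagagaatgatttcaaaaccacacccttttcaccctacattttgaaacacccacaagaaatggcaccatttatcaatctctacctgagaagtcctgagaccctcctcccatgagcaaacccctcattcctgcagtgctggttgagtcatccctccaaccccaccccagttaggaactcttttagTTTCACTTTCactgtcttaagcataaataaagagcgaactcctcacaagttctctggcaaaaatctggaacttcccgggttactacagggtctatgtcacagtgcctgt
H2-T23: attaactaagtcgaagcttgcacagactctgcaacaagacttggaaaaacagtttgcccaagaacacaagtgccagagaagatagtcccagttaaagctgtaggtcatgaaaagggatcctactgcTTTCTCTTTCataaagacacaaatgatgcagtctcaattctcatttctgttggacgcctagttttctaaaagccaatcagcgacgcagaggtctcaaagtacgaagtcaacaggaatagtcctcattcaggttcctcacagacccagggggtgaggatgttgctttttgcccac
The matches begin 91 and 46 bases before the start in Gm12250, 34 in Igtp, 59 in Gbp2 and 124 in H2-T23.

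Upstream of these targets, 8 of 17 measured interferon ligand, receptor and signalling genes were higher and none was lower (median 1.54). Without NI replicate 1 the median was 0.75, with 8 members higher. The receptor and kinase genes Ifnar1, Ifnar2, Ifngr1, Ifngr2, Jak1, Jak2 and Tyk2 were neither, with log2 differences of 0.17 to 0.83, while the 8 higher genes encode transcription factors and regulators. Irf7, which drives further type I interferon, had 183 normalized counts at FT 1 week and 25.9 to 99.1 in the other injured libraries, against 18.9, 11.9 and 11.6 in NI. Ciita, the master regulator of MHC class II genes, had 37.6, against 5.58, 3.57 and 6.84. For both the FT 1 week value was several times the highest NI value. Nlrc5, the counterpart of Ciita for MHC class I, had 49.3, against 6.05, 6.19 and 8.42. Usp18, a negative regulator of the type I receptor, had 140.3, against 28.3, 12.6 and 9.72, and lay within 2-fold of the highest other injured library, at 118. The ligand gene Ifnb1 had 2.55, against 1.02, 1.09 and 1.15, and was neither. Ifng was not among the genes of the table. Irf7, Nlrc5 and Ciita each overlap a gene on the opposite strand, and the libraries are not stated to keep strand.

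Of 26 interferon-stimulated antiviral genes, 24 were higher and none was lower, with log2 differences of 0.19 to 4.29 and a median of 2.12. Zbp1, a sensor of nucleic acid in the Z form, had 58.6 normalized counts at FT 1 week, against 1.96, 1.34 and 3.09 in NI. Ifit3, of a family that binds viral RNA, had 131, against 16.4, 6.70 and 3.67. Oasl2 had 118, against 9.90, 9.26 and 9.36. The FT 1 week library lay above the whole NI range in each. The ubiquitin-like modifier gene Isg15 had 49.2, against 6.60, 4.98 and 5.33. Bst2, which tethers budding virus, had 129.7, against 16.03, 14.9 and 18.5. The chaperone gene Rtp4 had 106, against 14.4, 11.6 and 13.2. Antiviral genes were also higher elsewhere, with 0 to 18 members higher in each of the 8 other injured libraries, against the same NI libraries. The GTPase list had 0 to 3 members higher in each of them. Of the antiviral genes 5 were higher in FT 1 week than in all 11 other libraries.

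Antigen presentation genes were higher as well. Of 19 measured MHC class I genes, 16 were higher (log2 differences of 0.16 to 3.76, median 2.00). All 19 lay above every NI library, beside 4455 of 16388 genes compared. The light chain gene B2m had 3606 normalized counts at FT 1 week, against 487, 582 and 770.4 in NI. H2-K1 had 709, against 39.9, 70.8 and 90.8. H2-T23, a class Ib gene, had 428, against 16.6, 34.4 and 50.2. Within NI these genes were lowest in replicate 1, and even the highest NI library was far below FT 1 week. The peptide transporter gene Tap1 had 181, against 11.5, 12 and 17.5. The immunoproteasome gene Psmb8 had 231, against 25.8, 20.6 and 43.8. In the other injured libraries H2-K1 reached 329 and Tap1 33.6, so both were highest in the FT 1 week library. The H2 genes are similar in sequence, and Tap1 overlaps Psmb9 on the opposite strand, so the values of single members are uncertain.

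Of 16 MHC class II and costimulation genes, 11 were higher and none was lower (log2 differences of 0.18 to 3.16, median 2.16). After rescaling to the same total 7 were higher, and without NI replicate 1 the median was 1.47, with 11 higher. The list summed to 13943 normalized counts at FT 1 week and to 442 to 7129 in the other injured libraries, against 1522, 2742 and 3642 in NI. Replicate 3 of HS 1 week and replicate 1 of HS 2 weeks, at 5755 and 7129, also exceeded every NI library. The invariant chain gene Cd74 had 6252 normalized counts at FT 1 week, against 785, 518 and 839 in NI. H2-Ab1 had 1062, against 149, 85.2 and 134. H2-Aa had 547, against 123, 56.9 and 107. In each the FT 1 week library was highest and NI replicate 2 lowest of the 4. H2-Eb1 had 595, against 128, 51.4 and 91.7. At 2 weeks after FT, H2-Ab1 was at 17.9 to 59.5, H2-Aa at 15.96 to 47.7 and H2-Eb1 at 10.96 to 40.8, below the NI range in each case. Class II genes are characteristic of professional antigen-presenting cells, and activated phagocyte genes were high in the same library, with a sum of 19462, against 5095, 5642 and 6739 in NI. Homeostatic microglia genes summed to 5434, against 849, 5268 and 7152. The part of such cells in the class II values was not tested.

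**Figure D4:**
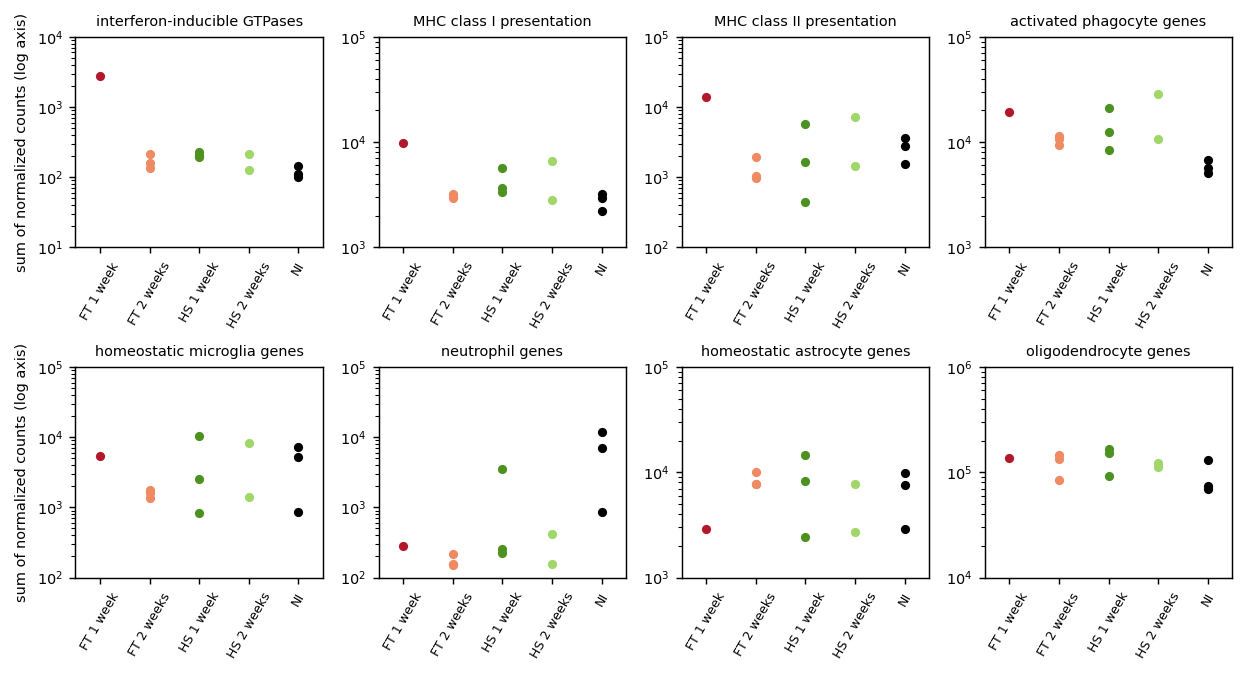
Sum of normalized counts (log axis) over the genes of 8 lists, 1 point per library, with FT 1 week at the left and NI at the right of each panel. The GTPase sum is 2806 in FT 1 week and at most 226 in the 11 other libraries, while the microglia sum of 5434 lies inside the NI range.

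Among chemokine ligand genes, 7 of 27 were higher and 2 lower, with a median of 0.34, or 0.09 without NI replicate 1, 0.17 without NI replicate 2 and 0.05 after rescaling to the same total. Cxcl9, which draws T cells through Cxcr3, had 82.9 normalized counts at FT 1 week and at most 3.85 in the other injured libraries, against 0.629, 1.28 and 1.44 in NI. Ccl8 had 91.3, against 2.20, 1.28 and 0.864. Ccl5, a T cell and monocyte attractant, had 181, against 3.46, 4.02 and 4.32. The NI values of all 3 were a few normalized counts, and in another injured library Ccl8 reached 14.2 and Ccl5 111. Cxcl10, another Cxcr3 ligand, had 48.3, against 5.89, 2.87 and 4.39. Cxcl13, which attracts B cells, had 719.7, against 5.03, 5.49 and 104, with NI replicate 3 far above the other NI libraries. The platelet chemokine gene Pf4 was lower, with 2.28, against 46.9, 17.7 and 54.6. The monocyte attractant gene Ccl2 and the neutrophil attractant gene Cxcl2 were neither, at log2 differences of 0.54 and -0.44.

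Genes of the lymphocytes that such chemokines attract went both ways. Of 32 T and NK cell genes, 22 were in the table, none of them at 0 reads in the FT 1 week library. Of the 22, 2 were higher (9.09%) and 2 lower (9.09%), beside 2.34% and 2.88% of all genes. Il2rg, the shared chain of several cytokine receptors, had 205 normalized counts, against 8.17, 11.4 and 26.2. Klrk1, which encodes the activating receptor NKG2D, had 22.6, against 0.707, 0.830 and 1.66. Defining genes of the T cell receptor complex did not follow them. Cd3e had 0.940, against 0.629, 1.15 and 1.58, and was neither. Cd3d had 0.672, against 1.10, 10.5 and 10.7, and was neither. The granule gene Nkg7 was lower with 2.55, against 8.17, 16.9 and 55.8. Cd27, a costimulatory receptor gene of lymphocytes, was lower too, and without NI replicate 1, 4 members were. The list summed to 268, against 43.3, 71.1 and 143 in NI, but Il2rg alone held 205 of the 268, so the sum mostly reflects that gene. The part of lymphocytes in the interferon and chemokine values was not tested.

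Complement genes had 8 higher (36.4%) and 1 lower (4.55%) of 22 measured (median 1.06), beside 2.34% and 2.88% of all genes. Without NI replicate 1, 12 were higher. Cfb, the protease of the alternative pathway (chromosome 17, 34856374 to 34862518), had 277 normalized counts at FT 1 week and 2.99 to 59.4 in the other injured libraries, against 4.24, 5.81 and 4.89 in NI. C4b, of the classical pathway, had 1629 at FT 1 week and 595 to 1489 in the other injured libraries, against 62.5, 31.0 and 27.3. By the 2-fold rule Cfb was thus higher than all 11 other libraries and C4b was not. C4a had 9.40, against 1.49, 0.894 and 0.576, and as a near-identical paralog of C4b it may hold reads of that gene. C1qb, of the first component, which microglia express, had 2199, against 169, 639 and 644. Its partner gene C1qc had 452, against 34.6, 92.6 and 91.9. NI replicate 1 was the lowest of the 4 libraries for both. The complement inhibitor gene Susd4 ran the other way, with 3 reads in the FT 1 week library (0.403 normalized counts) and 47.8 to 105 in the other injured libraries, against 70.4, 33.5 and 37.3 in NI. The pooled NI level was 114 times the FT 1 week value (95% interval 38.9 to 552), an exact interval that covers counting error only.

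Genes of activated phagocytes, as described in microglia and macrophages around lesions and plaques, were higher for 15 of 29 members and lower for 1 (median 1.98). These were 51.7% and 3.45%, beside 2.34% and 2.88% of all genes. Cst7, a cathepsin inhibitor gene, had 209 normalized counts at FT 1 week, against 3.38, 4.85 and 15.5 in NI. Fcgr4, a receptor gene for IgG, had 88.4, against 0.393, 7.02 and 5.18. Cd274, which encodes PD-L1 and is itself an interferon target, had 115, against 2.44, 7.21 and 4.68. Fcgr4 and Cd274 were higher than in all 11 other libraries, but Cst7 reached 235 in another injured library. The scavenger receptor gene Cd36 had 114, against 4.95, 4.72 and 3.81. Another of this class, Msr1, had 66.7, against 10.7, 6.64 and 7.92. Cd72, an inhibitory receptor gene that overlaps Tesk1 on the opposite strand, had 97.8, against 6.76, 5.81 and 7.77. The mannose receptor gene Mrc1 was the 1 lower member, with 11.3, against 49.7, 25.5 and 31.8. The list summed to 19462 at FT 1 week and to 8464 to 28691 in the other injured libraries.

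Of 16 homeostatic microglia genes, Aif1 (Iba1) was higher, with 467, against 21.1, 88.8 and 109.8, and none was lower (median 0.33, or -0.18 without NI replicate 1). The receptor gene Csf1r, which microglia need to survive, had 1261, against 91.7, 833 and 1021. NI replicate 1 was the low library in both, and without it 5 microglia genes were lower and 1 higher. Monocyte genes did not move together, with 2 higher (20%) and 2 lower (20%) of 10, beside 2.34% and 2.88% of all genes. Besides Saa3, Ly6i, of a family of surface proteins, had 20.4, against 0.0786, 0.511 and 0.648. The matrix gene Vcan had 25.9, against 66.2, 119.6 and 124. The defining monocyte genes Ccr2 and Ly6c2 lay inside the NI range at log2 differences of -0.95 and -1.31, and without NI replicate 1, 6 members were lower.

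Lipid transport genes were higher in part. Of 17 apolipoprotein and cholesterol export genes 6 were higher (median 1.15), among them 4 neighbours of 1 cluster on chromosome 7. Apoe, the main lipid carrier of the brain, had 5707 normalized counts at FT 1 week, against 560.2, 1116 and 655 in NI. Apoc1 had 80.4, against 5.97, 3.13 and 2.45. Apoc2, an activator of lipoprotein lipase, had 32.4, against 1.65, 2.49 and 1.80. All lay above the NI range by more than 4-fold, yet Apoe reached 11328 and Apoc1 121 in another injured library. Apoc4 had 4.30, against 0, 0.447 and 0.0720. The cholesterol exporter gene Abca1 had 136, against 27.1, 39.0 and 31.5. None of the 6 was higher than all 11 other libraries, and without NI replicate 1, 9 were higher than NI. Cholesterol synthesis and uptake genes had a median of -0.63 over 21 members, and of -0.25 without NI replicate 1. Of the 21, 13 lay below every NI library, beside 4928 of 16388 genes compared. The list summed to 2872 at FT 1 week, against 7383, 3778 and 3256 in NI, where replicate 1 was the highest. Hmgcs1, of an early step, was neither, with 634, against 1846, 822 and 696.

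**Figure D5:**
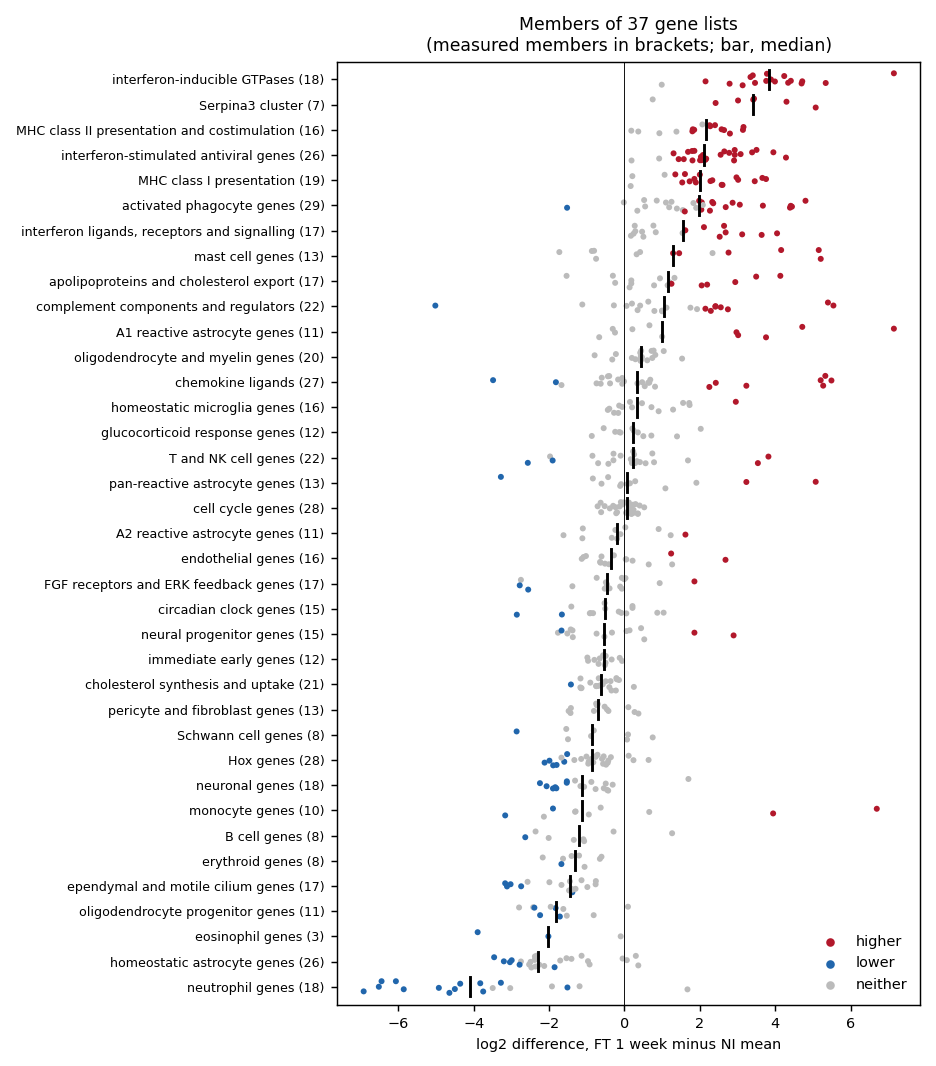
Log2 difference of each measured member of 37 gene lists, FT 1 week minus the NI mean on the log2(normalized count + 1) scale, with lists ordered by their median (black bar). Red points are higher, blue lower and grey neither. The GTPase list has the highest median (3.83) and the neutrophil list the lowest (-4.09).

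Homeostatic astrocyte genes were lower for 6 of 26 members and higher for none, and their median was -2.29. Of the 26, 20 lay below every NI library, beside 4928 of 16388 genes compared. Itih3, a hyaluronan-associated protein gene, had 16.8 normalized counts at FT 1 week, against 367, 377 and 52.9 in NI. The amino acid exchanger gene Slc7a10, which overlaps Lrp3 on the opposite strand, had 9.54, against 169.6, 182 and 28.1. The junction gene Cldn10 had 10.1, against 148, 204 and 23.8. In all 3, NI replicate 3 was the nearest library, and without it 22 of 26 members were lower. Fabp7, a lipid carrier gene of radial glia, had 13.03, against 63.6, 41.7 and 46.4. The glutamate transporter gene Slc1a2 was neither, with 67.2, against 489, 609 and 116. Its partner Slc1a3 was neither, with 162, against 243, 203 and 96.2. The water channel gene Aqp4 and Glul, which encodes glutamine synthetase, lay inside the NI range, at log2 differences of -0.93 and 0.30. The list summed to 2894 at FT 1 week and to 2428 to 14492 in the other injured libraries, against 7632, 9919 and 2880.4 in NI. Low medians were not peculiar to the FT 1 week library. Replicate 3 of HS 1 week had -2.54 with 12 members lower, and replicate 1 of HS 2 weeks had -1.85 with 2 lower. In the remaining injured libraries the median was 0.42 to 1.34.

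Among genes of reactive astrocytes, Serpina3n and Gfap are classical markers. Serpina3n, a protease inhibitor gene, had 1666 normalized counts at FT 1 week and 408 to 1938 in the other injured libraries, against 126, 36.3 and 24.4 in NI. Gfap, of the astroglial intermediate filament, had 304, against 154, 100.2 and 33.3, which fell just short of the 2-fold gap (0.98), and its median over the other injured libraries was 1068. Vim, another filament gene, had 92.9, against 136, 148 and 143, and lay below every NI library. Of 13 genes described in all reactive astrocytes, 2 were higher (Serpina3n and Cxcl10) and Lcn2, which neutrophils also express, was lower with 16.7, against 42.5, 297 and 389. Without NI replicate 1, 6 of the 13 were higher. Of 11 genes of the inflammatory class named A1 in mice, 5 were higher, namely Iigp1, Gbp2, H2-T23, H2-D1 and Psmb8, and all 5 also stand in the interferon or MHC lists. The other 6 A1 genes were neither. Serping1, an inhibitor gene of complement C1, had 189, against 491, 45.0 and 36.8. The proteoglycan gene Srgn had 77.4, against 32.2, 113 and 214. In both the FT 1 week value lay inside the NI range. Of 11 measured genes of the class named A2, Slc10a6 was higher with 4.30, against 0.157, 1.21 and 1.01, and without NI replicate 1, 3 others were lower.

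The Serpina3 cluster on chromosome 12 had 6 of 7 measured genes higher (median 3.42). Besides Serpina3n, Serpina3g had 68.8 normalized counts at FT 1 week, against 6.60, 3.0 and 7.77 in NI. Serpina3h had 24.8, against 0.0786, 0.830 and 0.144. Serpina3m had 19.2, against 2.59, 0.383 and 0.360. Serpina3g was above the 2.78 to 8.45 of the other injured libraries, whereas Serpina3m had 11.1 to 35.9 there. The members are tandem duplicates, and reads may be shared between them.

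The genes furthest below NI were granulocyte and macrophage genes and a group without a common class. Of the second kind, Jakmip1, which encodes a microtubule-binding partner of Janus kinases, had 3 reads in the FT 1 week library (0.403 normalized counts) and 27.1 to 75.0 in the other injured libraries, against 90.2, 56.0 and 57.3 in NI. The pooled NI level was 166 times the FT 1 week value (95% interval 56.6 to 803). Best3, of the bestrophin channel family, also had 3 reads, against 19.4, 65.3 and 72.9 normalized counts in NI, where the pooled level was 134 times the FT 1 week value (95% interval 45.8 to 650.2). Both intervals cover counting error only, not the spread between libraries. Both genes were present at 19.4 normalized counts or more in all 11 other libraries. Fhl4 had 3 reads, against 48.5, 47.3 and 22.1 normalized counts. The transcript 9330162B11Rik, which overlaps Esrrg on the opposite strand, had 1 read, against 68.4, 28.0 and 18.2. Klhl36, of the kelch-like family, had 2.69 normalized counts, against 88.7, 32.3 and 31.8. For Susd4, Jakmip1, Best3, Fhl4, 9330162B11Rik, Klhl36 and Lrrc43 the FT 1 week library also lay below all 8 other injured libraries by the 2-fold rule. Lrrc43, of the leucine-rich repeat family, had 0.672, against 13.99, 13.8 and 14.04.

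Of 18 measured neutrophil genes, 13 were lower and none was higher (median -4.09). S100a8, which encodes a calcium-binding alarmin, had 9.54 normalized counts at FT 1 week, against 173, 1573 and 3291 in NI. Its partner gene S100a9 had 5.51, against 101, 1076 and 1666. The granule protein gene Camp had 2.28, against 81.9, 574 and 1324. NI replicate 1 was the lowest NI library for all 3 and still lay above FT 1 week by more than 10-fold. Ngp, another granule protein gene, had 13.97, against 244, 1729 and 2379.8. Ltf, of the iron-binding lactoferrin, had 9.54, against 69.6, 596 and 779.9. The chitinase-like gene Chi3l3 (Chil3) had 4.30, against 10.7, 181 and 199. The FT 1 week library was lowest of the 4 in all 3. The collagenase gene Mmp8 had 1.21, against 2.91, 67.9 and 56.6, and did not reach the 2-fold gap. Over the whole list the sum was 279 in the FT 1 week library, 149 to 3561 in the other injured libraries and 861, 6939 and 11692 in NI. The other injured libraries had 0 to 13 members lower each, so few neutrophil transcripts were not peculiar to the FT 1 week library. Csf3r, the receptor gene for granulocyte colony-stimulating factor, which monocytes also express, was at 184, against 12.4, 112 and 128.

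Other granulocyte genes split by lineage. Of 8 eosinophil genes 3 were measured, and 2 were lower in the FT 1 week library and in each of the 8 other injured libraries. The 3 summed to 4.16 normalized counts at FT 1 week and 4.24 to 8.07 in the other injured libraries, against 35.8, 57.5 and 42.5 in NI. The eosinophil granule gene Prg2 was lower with 1.48 normalized counts at FT 1 week, against 25.1, 50.7 and 36.2 in NI. Epx, the eosinophil peroxidase gene, was lower with 0.537, against 8.41, 4.34 and 3.81. Prss34, a protease gene of basophils and mast cells, had 1 read (0.134 normalized counts), against 35.4, 49.0 and 128. All 3 were present in each NI library. Among genes of alternatively activated macrophages, Retnla had 0.672, against 13.6, 16.02 and 12.96. The lectin gene Mgl2 had 0.269, against 28.8, 10.02 and 14.3. For Prg2, Epx, Prss34, Retnla and Mgl2 the FT 1 week library did not lie below all 11 other libraries. By contrast 6 of 13 mast cell genes were higher (median 1.29). The chymase gene Mcpt2 had 46.2, against 0.157, 0.319 and 0.360. Mcpt1, of the same family, had 41.2, against 0.471, 0.128 and 0. The tryptase gene Tpsab1 had 6.58, against 0.0786, 0.0638 and 0.216. The other injured libraries had up to 158 normalized counts of Mcpt2, 33.8 of Mcpt1 and 69.9 of Tpsab1, and 4 to 7 mast cell genes higher each, while NI libraries had at most a few reads of these proteases. The growth factor receptor gene Kit, which mast cells need, was neither, with 16.4, against 3.46, 15.4 and 29.4. The Mcpt genes are similar in sequence, so the split between them is uncertain.

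B cell and erythroid genes rested on few reads. Of 8 measured B cell genes Vpreb3, of the pre-B cell receptor, was lower, with 0 reads in the FT 1 week library, against 1.18, 6.89 and 12.9 normalized counts in NI. With the FT 1 week library set at 3 reads, the pooled NI level was at least 17.7 times its value. NI replicate 1, at 1.18, was far nearer than that pooled level. Of 8 erythroid genes Gata1, a transcription factor gene of the lineage, was lower with 2 reads (0.269 normalized counts), against 1.96, 3.45 and 4.03. Without NI replicate 1, 6 B cell and 5 erythroid genes were lower.

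Myelin genes stayed within 2-fold of the NI range. None of 20 oligodendrocyte genes was higher or lower (median 0.44). Mbp, which encodes a protein that compacts the myelin sheath, had 15127 normalized counts at FT 1 week, against 13534, 6749.9 and 7585 in NI. Mog had 2506, against 3177, 1529 and 1767. NI replicate 1 was the highest NI library for both. Sox10, the transcription factor gene of the lineage, was likewise neither, at a log2 difference of -0.32. Oligodendrocyte progenitor genes were lower for 4 of 11 and higher for none (median -1.83). Ptprz1, a receptor phosphatase gene shared with astrocytes, had 22.4, against 124, 149 and 97.8. The growth factor receptor gene Pdgfra had 24.6, against 61.0, 89.2 and 133. C1ql1, a secreted synaptic organizer gene, had 0.269, against 2.12, 5.74 and 9.21. The FT 1 week library was below the whole NI range in each, and without NI replicate 1, 10 members were lower.

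Neuronal genes were lower for 7 of 18 measured (38.9%, beside 2.88% of all genes) and higher for none (median -1.12). Snap25, of the synaptic fusion complex, had 7.25 normalized counts at FT 1 week, against 57.8, 23.4 and 16.8 in NI. Syt1, the calcium sensor gene of that complex, had 1 read (0.134), against 2.99, 1.79 and 2.16. The pooled NI level was 16.9 times the FT 1 week value (95% interval 2.96 to 675, counting error only). Gad1, which encodes a GABA-synthesizing enzyme, had 1.21, against 4.87, 5.23 and 6.12. With values of this size a few reads decide the difference. Gad2, the second enzyme gene, was neither, with 1.48, against 2.59, 2.74 and 1.94. Rbfox3, the gene of NeuN, was neither, with 0.403, against 2.04, 1.15 and 1.08. The interneuron gene Pvalb and the neurofilament gene Nefl were neither, at log2 differences of -1.07 and -1.17.

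The study asked whether reactive astrocytes take on traits of neuronal progenitors. Of 15 measured progenitor genes 2 were higher (13.3%) and 1 lower (6.67%), beside 2.34% and 2.88% of all genes. Tubb3, which encodes βIII-tubulin (chromosome 8, 123411424 to 123422015), had 259.7 normalized counts at FT 1 week and 82.2 to 205 in the other injured libraries, against 69.6, 23.9 and 23.4 in NI. Fgfr4, a receptor gene for fibroblast growth factors, had 10.3 at FT 1 week and 6.64 to 14.5 in the other injured libraries, against 3.14, 1.15 and 2.45 in NI. For both genes all 9 injured libraries lay above the 3 NI libraries. Dcx, of immature neurons, had 3.89, against 2.99, 3.83 and 3.60, and was neither. The Notch target gene Hes1 was lower with 4.97, against 31.3, 16.1 and 11.4, and without NI replicate 1, 5 members were lower. Of 17 measured fibroblast growth factor receptor and ERK feedback genes, Fgfr4 was higher, 2 were lower and 14 were neither (median -0.47). Over all genes 2.88% were lower. The 2 lower genes act downstream of the receptors. Spred2, which restrains the ERK cascade, had 1.48, against 33.6, 14.5 and 8.21. Spry4, of the same function, had 1.88, against 17.1, 15.3 and 15.5. Both were also lower than all 8 other injured libraries by the 2-fold rule.

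Genes of ependymal cells, which line the central canal and bear motile cilia, were lower for 5 of 17 measured and higher for none (median -1.45), and for 15 without NI replicate 1 (median -2.29), while the median was -0.88 without NI replicate 2. Rarres2, of the chemoattractant chemerin, had 6.45 normalized counts at FT 1 week, against 91.5, 37.3 and 33.9 in NI. The cilium gene Rsph1 had 1.88, against 7.62, 52.0 and 33.2. None of 13 pericyte and fibroblast genes was higher or lower, and their sum of 907, against 7189.8, 692 and 502, set NI replicate 1 apart from the rest. Dcn, a matrix proteoglycan gene, had 586, against 5140, 373 and 277. Of 16 endothelial genes the transporter gene Slco1a4 was higher with 29.4, against 2.28, 5.55 and 3.96. Sele, an adhesion gene of activated endothelium, was higher with 2.15, against 0.471, 0.128 and 0.432, but not after rescaling to the same total. Of 8 Schwann cell genes 1 was lower (12.5%, beside 2.88% of all genes), and 4 were without NI replicate 2.

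None of 28 cell cycle genes was higher or lower (median 0.07). Without NI replicate 1 the median was -0.41 with 1 lower, and without NI replicate 3 it was 0.45. Pcna, of the replication clamp, had 121 normalized counts at FT 1 week, against 94.3, 96.6 and 134 in NI. Immediate early genes, which respond quickly to cell dissociation as well as to signals, had none higher or lower (median -0.54), and 5 lower without NI replicate 1 (median -1.07). The median was -0.33 without NI replicate 2 and -0.27 without NI replicate 3. Fos had 589, against 374, 795 and 895. Of 12 glucocorticoid response genes none was higher or lower, and 3 were higher without NI replicate 2. Sgk1, a kinase gene, had 1164, against 166, 1089.9 and 477.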

How the data were processed

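Per the labels and the study's methods, polyadenylated RNA of sorted eGFP+ cells was amplified and sequenced, and the authors used TopHat2 2.0.9 (mm10, GRCm38) for mapping, HTSeq 0.5.4p3 for counts per gene and edgeR 3.3.6 for library size normalization after a filter on low counts. Strand is not stated. The deposited table gives normalized counts, a signal of 16389 genes in 12 libraries. All values (100% within 1e-06 reads) were whole reads times 1 factor per library, and recovered totals were 8270643 to 15562378. Flow cytometry and immunostaining of the study were not used here.

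Where any of the 5 groups had a mean of 0.5 or more, a gene was compared (16388 genes) as log2(normalized count + 1), FT 1 week minus the mean of 3 NI libraries. With 1 FT 1 week library there is no replicate check and no test. Higher and lower mean at least 1 log2 unit beyond the nearest NI library. Genes were named where the study names them, where they were among the 15 furthest per direction with at least 5 normalized counts on the higher side, and as up to 6 members per list beyond the rule, or the pair with the highest mean where under 2 were. The 172 genes chosen so are described where the results turn on them, and other genes named, as defining markers or neighbours, were picked with their values in view. Some genes that the rule chose are not reported here. The 37 lists (666 members) and the comparison were chosen with earlier results of these data known. Positions came from the GENCODE annotation, matched by symbol, or by a RefSeq synonym where that failed, for 16202 genes (98.9%). Promoters came from RefSeq (GRCm38.p6), with a window for 12670 of the 16388 genes. Intervals are exact at 95%, pool the NI libraries, and cover counting error only. For a gene at 0 reads, a floor of 3 reads (0.403 normalized counts) was used only for the bound on its fold. Calls, differences and medians kept 0 reads as 0.

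Alternatives were other pseudocounts, filters and scalings, other gaps, leaving out each NI library, and pooled-spread fits with limma 3.58.1, edgeR 4.0.16 (quasi-likelihood) and DESeq2 1.42.0 in R 4.3.3. Python 3.11.15, numpy 2.4.6, pandas 2.3.3, scipy 1.17.1 and matplotlib 3.10.9 were used. The 2-fold rule and the pooled-spread fits were also run on simulated counts.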

Additional observations from a re-analysis of the deposited data

Results flagged for a closer look

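In 5 comparisons the FT 1 week library lay on one side of the NI mean and every library of another injured group lay on the opposite side by a set amount, at least 1 log2 unit for a named higher or lower gene and at least 0.5 on both sides for the median of a list. Other lists lay on opposite sides by less, such as homeostatic astrocyte genes, whose median was -2.29 in the FT 1 week library and 0.42 to 1.02 at FT 2 weeks. The HS libraries lay on both sides for that list, with medians from -2.54 to 1.34. Each comparison rests on 1 FT 1 week library, and none of the differences was tested. The MHC class II gene H2-Aa had a log2 difference from NI of 2.58 in the FT 1 week library, and of -4.31 to -1.06 in the 3 HS 1 week libraries. H2-Eb1, of the same class, had 2.80 in the FT 1 week library, -2.84 to -1.03 in the 3 FT 2 weeks libraries and -4.13 to -1.19 in the 3 HS 1 week libraries. The median of the MHC class II list was 2.16 in the FT 1 week library and -1.46 to -0.60 at FT 2 weeks. The median of the pericyte and fibroblast list was -0.71 in the FT 1 week library and 0.96 to 1.26 at FT 2 weeks, and without NI replicate 1, which itself was high in these genes, the FT 1 week median was -0.30.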

How the results depend on the processing

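The counts of 384 higher and 472 lower genes depended on the rule and little on the filter. They became 142 and 61 with a gap of at least 2 log2 units, and 768 and 1407 with 1 log2 unit from the NI mean. Against all 11 other libraries, an alternative chosen after seeing the data, they were 118 and 63. Lower genes numbered 924 with a pseudocount of 0.25 and 175 with a pseudocount of 4, since many rest on few reads. Rescaling to the same total gave 267 higher and 719 lower genes and moved the median of all genes to -0.27, from -0.02 as deposited. Leaving out each NI library in turn gave 440 to 564 higher and 543 to 1117 lower genes (replicate 1, 564 and 1117, and replicate 3, 503 and 826), and can only raise the counts. Fits that let the FT 1 week library vary like the other groups, at an adjusted p under 0.05 and 2-fold, called 61 higher and 13 lower genes with limma-trend over all 12 libraries, 61 and 9 with edgeR and 169 and 201 with DESeq2, which left 1914 adjusted p-values missing. With FT 1 week and NI alone limma-trend called 0 in either direction (1457 genes at an unadjusted p under 0.05, and 1837 over all 12 libraries). Of 137 higher or lower genes that the rule for named genes chose, 135 remained so after rescaling to the same total (all but Lipa and Sele), 104 with a pseudocount of 4, 126 with a minimum of 5, 122 without genes at 3 reads or fewer, 86 with a gap of 2 log2 units and 49 against the 11 other libraries. None of them changed direction against NI. Some list medians near 0 changed sign. The cell cycle median of 0.07 became -0.41 without NI replicate 1 and -0.20 after rescaling to the same total, and that of homeostatic microglia genes, 0.33, became -0.18 without NI replicate 1. The pan-reactive astrocyte median of 0.08 became -0.14 and -0.38 without NI replicates 2 and 3, -0.21 after that rescaling and -0.01 with a pseudocount of 4. The glucocorticoid response median of 0.23 became -0.15 without NI replicate 3 and -0.05 after that rescaling. No paired analysis was possible because the FT 1 week group has 1 library, whose label carries no replicate number. The depth of 8270643 reads limits the genes near 0.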

Other observations

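Some higher genes were neighbours on the genome, mostly members of families described in the report. Of 2172 windows of 1 Mb, 18 held at least 4 higher genes and none held 4 lower genes. The fullest was chromosome 17, 34020792 to 34985891 (GRCm38.p6), with 14 of 52 genes higher, among them C4b, Cfb, Tap1, Tap2 and the H2 class II genes. On chromosome 18, 37020149 to 37998969, 7 of 50 genes were higher, all of them clustered protocadherins, which encode adhesion proteins that differ between single neurons. Pcdhga11 had 18.1 normalized counts at FT 1 week, against 5.97, 6.45 and 4.89 in NI, and Pcdhgb7 had 7.39, against 2.44, 2.74 and 1.87. The other injured libraries reached 31.9 for Pcdhga11 and 9.93 for Pcdhgb7, and the genes share exons, so single values are uncertain. On chromosome 19, 34008290 to 34975745, 6 of 15 genes were higher, among them Ifit1, Ifit2 and Ifit3, with Ch25h, an oxysterol-forming enzyme gene, at 23.5, against 2.51, 3.13 and 8.06.

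Homeobox genes of the Hox clusters keep a record of position along the body axis. They were lower for 6 of 28 measured members and higher for none (median -0.86). Of the 28, 24 lay below every NI library, beside 4928 of 16388 genes compared. Hoxa7 had 2.55 normalized counts at FT 1 week, against 12.4, 17.4 and 10.4 in NI. Hoxc10, which overlaps Hoxc5 in the annotation, had 1.21, against 14.5, 5.62 and 4.39. Hoxd10 had 0 reads, against 5.58, 1.85 and 3.38. With the FT 1 week library set at 3 reads, the pooled NI level was at least 8.63 times its value, and NI replicate 2 was nearer. The values rest on few reads in the FT 1 week library. Among 15 circadian clock genes 2 were lower (13.3%, beside 2.88% of all genes). Arntl, of the activating arm, was lower with 5.24, against 81.5, 37.5 and 28.1. Hlf, a clock output factor gene, was lower with 4.97, against 24.4, 18.8 and 12.4. Without NI replicate 3, 9 Hox genes and 4 clock genes were lower.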
